A study of Mus musculus with 33 samples.

Results

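Plasma cells are the antibody-secreting end stage of the B cell lineage. Here they were the cells with at least 5 UMIs of Jchain, which encodes the chain that joins IgM and IgA into polymers, at least 1 UMI of Mzb1, a chaperone of immunoglobulin assembly, at least 1 UMI of either Sdc1 (syndecan, the plasma cell surface marker CD138) or Derl3 (a factor of endoplasmic reticulum protein degradation), and no UMI of Siglech, which marks plasmacytoid dendritic cells. A UMI is a molecular tag that stands for 1 captured RNA molecule. The rule found 260 plasma cells among 77728 kept cells. A cell was kept if it held 500 UMIs and 200 genes or more and its mitochondrial UMIs did not exceed 15%. Of these, 184 came from 55366 cells of the intracardiac injection samples and 76 from 22362 cells of the IIA injection pool.

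The data are mouse single-cell RNA counts made after SAMENT, a niche labelling method in which tissue cells that took the label carry biotin and are sorted from the biotin negative remainder. After intracardiac injection, bone (femurs and tibias), brain, liver and lung were each given as 4 biotin negative and 4 biotin positive samples, tagged with CellPlex and read from the 3′ end. After IIA injection, a single TotalSeqC pool read from the 5′ end held 6 biotin negative and 6 biotin positive bone samples. All animals received the overnight SAMENT substrate, and no unlabelled animals enter a comparison. The labels state neither the injected cells nor the strain, age or sex of the mice, and they do not say whether a replicate number stands for 1 mouse. The p-values therefore measure the spread between these samples, which may be in part technical. The 8 intracardiac samples of 1 number shared a list of 8 tags and none of their cell barcodes, whereas 341 barcodes recurred between numbers and 39 between the intracardiac samples and the pool. The 260 plasma cells had 260 distinct barcodes.

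When a B cell becomes a plasma cell, Prdm1 and Irf4 switch off the B cell programme, and Xbp1 expands the endoplasmic reticulum so that large amounts of immunoglobulin can be folded and secreted. The unfolded protein response supplies chaperones and removes misfolded chains during this work. Heavy chain class switching replaces IgM by IgG or IgA, and long-lived plasma cells are best known from bone marrow, where they depend on survival signals through receptors such as BCMA (Tnfrsf17). Each cell carries 1 rearranged heavy chain V segment (Ighv) and 1 light chain V segment (Igkv or Iglv), so V segment transcripts serve as a label of its antibody.

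The germline sequences of the 2 V segment combinations found in the most plasma cells are shown because they identify the antibodies of the cells described next. Ighv11-2 with Igkv14-126 was called in 9 plasma cells and Ighv12-3 with Igkv4-91 in 7. Both combinations are known from B-1 cells, a self-renewing B cell lineage that makes natural IgM, and both give antibodies to phosphatidylcholine. On GRCm38, with GENCODE annotation, Ighv11-2 lies at chr12:114048241-114048812 on the minus strand, Igkv14-126 at chr6:67896172-67896642 on the plus strand, Ighv12-3 at chr12:114366521-114366954 on the minus strand and Igkv4-91 at chr6:68768555-68769103 on the minus strand. Each is a 2-exon V gene segment; the last 300 bases of the joined coding exons are printed 5′ to 3′, with capitals from the last in-frame cysteine codon, where the third complementarity-determining region begins, to the end of the segment.
Ighv11-2: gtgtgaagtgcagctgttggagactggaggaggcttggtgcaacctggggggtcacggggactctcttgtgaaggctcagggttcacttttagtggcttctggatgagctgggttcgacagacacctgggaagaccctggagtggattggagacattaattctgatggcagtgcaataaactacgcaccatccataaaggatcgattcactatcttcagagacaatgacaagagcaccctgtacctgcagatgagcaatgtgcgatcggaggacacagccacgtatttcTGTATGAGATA
Igkv14-126: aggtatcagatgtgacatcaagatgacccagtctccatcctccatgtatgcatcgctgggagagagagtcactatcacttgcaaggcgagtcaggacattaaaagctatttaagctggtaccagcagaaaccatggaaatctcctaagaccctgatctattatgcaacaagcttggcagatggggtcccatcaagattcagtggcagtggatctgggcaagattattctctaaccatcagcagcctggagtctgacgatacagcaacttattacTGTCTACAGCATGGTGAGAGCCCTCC
Ighv12-3: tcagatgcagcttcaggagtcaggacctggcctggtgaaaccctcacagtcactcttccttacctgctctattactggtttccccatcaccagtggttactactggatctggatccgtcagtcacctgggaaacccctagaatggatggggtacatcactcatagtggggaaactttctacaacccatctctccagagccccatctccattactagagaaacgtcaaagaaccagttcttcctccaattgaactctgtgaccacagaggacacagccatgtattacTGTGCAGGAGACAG
Igkv4-91: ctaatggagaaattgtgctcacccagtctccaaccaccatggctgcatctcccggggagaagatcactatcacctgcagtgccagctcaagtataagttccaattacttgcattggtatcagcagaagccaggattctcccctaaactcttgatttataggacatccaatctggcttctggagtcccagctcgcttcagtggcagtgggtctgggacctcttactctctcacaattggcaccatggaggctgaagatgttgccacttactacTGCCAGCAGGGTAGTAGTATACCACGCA
The nearest other Ighv segment to Ighv11-2 is Ighv11-1, at 98.9% identity over the coding sequence, so reads could be split between them; no plasma cell was called for Ighv11-1. The other nearest segments are less alike: Igkv14-111 is 91.5% identical to Igkv14-126, Ighv3-6 is 77.1% identical to Ighv12-3, and Igkv4-79 is 87.2% identical to Igkv4-91.

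All 9 cells with Ighv11-2 and Igkv14-126 were IgM cells. They came from 6 samples of 4 replicate numbers: 1 cell from biotin negative bone 1, 3 cells from biotin negative bone 3, 1 each from biotin negative brain 4, liver 1 and lung 3, and 2 from biotin negative IIA bone 6. The cells held 13 to 86 Ighv11-2 UMIs (median 31) and 52 to 607 Igkv14-126 UMIs (median 108), and all 9 remained under the stricter call of at least 10 UMIs and 5 times the next segment. All 7 cells with Ighv12-3 and Igkv4-91 were IgM cells too. They came from biotin negative liver 3 (2 cells), lung 3 (1 cell) and lung 4 (2 cells), from biotin positive lung 3 (1 cell) and from biotin negative IIA bone 5 (1 cell), with 5 to 32 Ighv12-3 UMIs, and 5 of the 7 remained under the stricter call. Both combinations appeared in both experiments; the first was found in all 4 intracardiac tissues, the second in liver and lung. A further IgM combination, Ighv1-78 with Igkv5-39, was called in 4 cells of 4 samples: biotin positive bone 3, biotin negative liver 4, and biotin negative and biotin positive lung 3.

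A heavy and a kappa V segment could both be called in 186 of the 260 plasma cells, 123 of 184 in the 3′ libraries and 63 of 76 in the 5′ library, each call needing at least 3 UMIs and 3 times the next segment. These 186 cells held 140 combinations, of which 116 occurred in 1 cell. Among the other repeats, 3 combinations of 3 cells were each confined to 1 sample: Ighv1-71 with Igkv3-5 in 3 IgG cells of biotin negative IIA bone 6, Ighv2-9-1 with Igkv8-28 in 3 IgM cells of biotin negative bone 3, and Ighv14-4 with Igkv6-20 in 3 IgM cells of biotin negative lung 4. Among kappa segments the one met most often was Igkv3-2, in 30 cells, of which 26 were IgM. Ordinary B cells rarely gave both calls (3 of 4514 cells). The V combinations were picked out after their counts were seen and are described without a test.

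The label held against markers that the rule did not use. Plasma cells were set beside 4514 B cells (Ms4a1 and Cd79a detected) and 4031 T cells (Cd3e with Cd3d or Cd3g), in CPM, that is UMI counts scaled to the total outside the immunoglobulin genes, with intracardiac values first. Xbp1 stood at 1452 CPM in plasma cells against 57.1 in B cells and 58.8 in T cells. Prdm1 stood at 199 CPM against 12.5 in B cells and 29.9 in T cells, and Tnfrsf17 at 190 against 0.0689 and 0. In the IIA pool the order was the same, with Xbp1 at 2736 CPM in plasma cells and 65.4 in B cells. Of 18 plasma cell genes listed beside those of the rule, 15 were at least 2-fold above both B and T cells in both experiments, compared with 5.97% of all 10871 genes that reached 10 CPM in any of the populations. The exceptions were Cd93, Cd38 and Prg2, the last because B cells of the IIA pool held 290 CPM of it. Because the cells were selected on transcripts of the same cells, these values describe the population and were not tested.

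**Figure D1:**
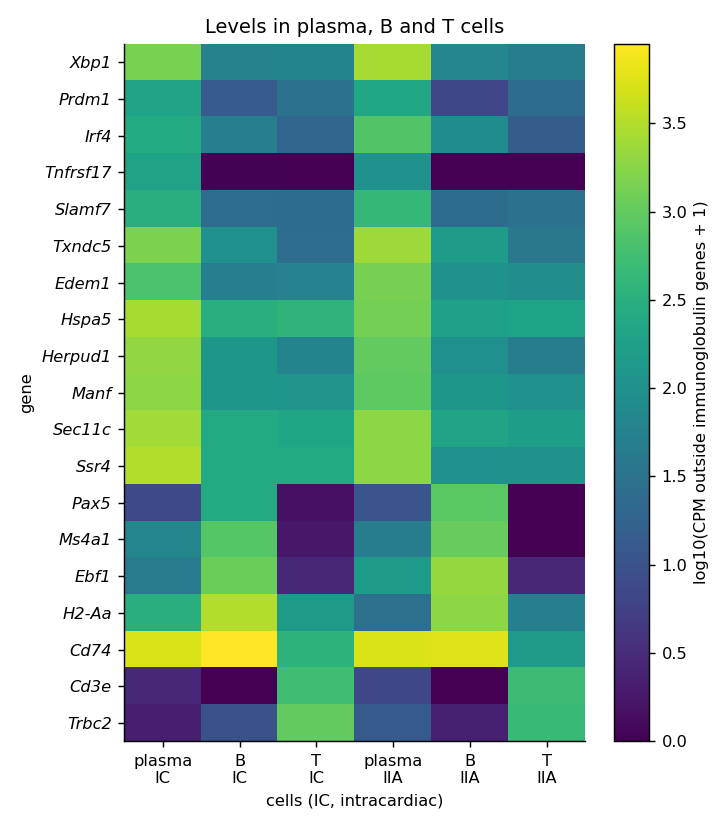
Heatmap of plasma cell, secretory, B cell, antigen presentation and T cell genes (rows) in plasma, B and T cells of the intracardiac samples (IC) and of the IIA pool (columns); colour is log10 of CPM outside immunoglobulin genes plus 1. Xbp1 stands at 1452 CPM in intracardiac plasma cells and 57.1 in B cells, while Pax5 stands at 6.41 and 260.

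The secretory machinery stood high in plasma cells. Of 30 genes of protein translocation, signal peptide cleavage, glycosylation and transport, 27 were at least 2-fold above both comparison populations in both experiments. Examples from the intracardiac cells are Ssr4, a subunit of the translocon-associated complex, at 3153 CPM against 261 in B cells, and Sec11c, a signal peptidase subunit, at 2503 against 262. Of 23 genes of the unfolded protein response, 20 met the same bound. Hspa5, the main chaperone of the endoplasmic reticulum, stood at 2677 CPM against 300.8 in B cells, and Herpud1, a membrane protein of endoplasmic reticulum degradation, at 2059 against 123. By contrast, all 14 B cell identity genes outside the immunoglobulins were at least 2-fold below the B cells in both experiments, compared with 16.3% of all genes; Ms4a1 and Cd79a, 2 of the 14, had served to choose the B cells. Pax5, the transcription factor that maintains B cell identity, stood at 6.41 CPM against 260. Of the MHC class II pathway, 9 of 10 genes were at least 2-fold below B cells, while Cd74, the invariant chain, stood at 5247 CPM against 8901.

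Immunoglobulin transcripts made up a median of 46.1% of all UMIs of a plasma cell (range 1.08% to 76.1%), and 5 of the 260 cells were below 10%. The median plasma cell held 15055.5 UMIs after intracardiac injection and 9138 in the pool, against 2541 and 1696 for B cells. Outside the immunoglobulins, the most abundant transcripts beside Jchain included Malat1, a nuclear noncoding RNA, at 33349 CPM and Slpi, a secreted inhibitor of serine proteases, at 9233 CPM in intracardiac cells. In the IIA pool Slpi reached 38866 CPM, whereas B and T cells there held 125 each. The rule had few cells at its edges: 7 members held 5 to 9 Jchain UMIs, 5 cells just outside held 3 or 4, 29 cells lacked both Sdc1 and Derl3, 8 lacked Mzb1, and none was removed by Siglech. Free RNA in the droplets bounds the marker itself, since Jchain was detected in 1.68% of intracardiac T cells (median 3455 UMIs) and 2.34% of those of the pool (median 2414.5).

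Markers of other lineages differed in level. The 8 T cell markers summed to 18.6 CPM in intracardiac plasma cells against 3714 in T cells, and to 50.1 against 2731 in the IIA pool. Cd8a, Ncr1, Col1a1 and Apoa1 had no UMI in any plasma cell, but other markers of their lists did. Some T cell marker was detected in 28 plasma cells, some natural killer cell marker in 16, some stromal marker in 4 and some hepatocyte marker in 3. Endothelial markers were detected in 42 plasma cells and platelet markers in 23. The 8 plasmacytoid dendritic cell markers had a UMI in 250 of the 260 cells and were above both other populations, at 669.8 CPM in intracardiac plasma cells against 207.9 in T cells and 361.9 in B cells, and at 917 against 341.7 and 485.9 in the IIA pool. Of these, Tcf4 stood at 383.8 CPM and Bst2 at 210.3 in intracardiac plasma cells, while the defining Siglech and Klk1 were at 0. The phagocyte markers summed to 1016 CPM in intracardiac plasma cells, below the 1711 of T cells and the 2395 of B cells. The 8 neutrophil markers summed to 31780.5 CPM in intracardiac plasma cells against 22679 in T cells, and to 14733 against 48545 in the IIA pool, so plasma cells were above T cells in the first and below them in the second. S100a8 or S100a9 was detected in 255 of the 260 cells. Per cell, neutrophil markers were a median of 0.27% of UMIs outside immunoglobulins, and 12 cells exceeded 3%, with 3.45% to 36.6%; the highest of the others had 1.04%. These 12 cells had a median of 27389.5 UMIs against 13244.5 in the rest, and 5 were IgM, 3 IgA and 4 IgG. At least 2 UMIs of at least 2 markers of another lineage were found in 9 cells, 1 of which was among the 12. Doublets were not removed.

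Plasma cells were at most 1.61% of the kept cells of any sample, and replicate numbers differed in how many they held. In biotin negative bone, the 4 samples held 13, 3, 27 and 20 plasma cells, or 0.439%, 0.117%, 1.10% and 0.571% of kept cells. Biotin negative brain held 2, 1, 2 and 13 cells, or 0.0977%, 0.0687%, 0.182% and 0.455%. Biotin negative liver held 6, 0, 12 and 10 cells, or 0.178%, 0%, 0.771% and 0.789%. In each of these tissues sample 2 was the lowest and sample 3 or 4 the highest. Biotin negative lung repeated that order with 4, 0, 20 and 30 cells, or 0.145%, 0%, 0.900% and 0.974%. Pooled over the 8 intracardiac samples of a number, plasma cells made up 0.167% of number 1 (95% exact binomial interval 0.113% to 0.238%), 0.0283% of number 2 (0.00771% to 0.0724%), 0.685% of number 3 (0.535% to 0.865%) and 0.615% of number 4 (0.488% to 0.764%). The intervals of numbers 3 and 4 overlap each other and lie above those of numbers 1 and 2; all intervals cover counting error only.

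No difference between tissues passed the test. The 4 biotin negative samples averaged 0.558% ± 0.411 (SD, n = 4) for bone, 0.201% ± 0.176 for brain, 0.435% ± 0.405 for liver and 0.505% ± 0.503 for lung. Bone exceeded brain in all 4 numbers, by a mean of 0.357 percentage points, which was the biggest of the 6 differences between tissues, but it did not pass (two-sided exact permutation test, p = 0.143, 0.743 after Benjamini-Hochberg adjustment over 6 tests). The other 5 pairs of tissues had exact p-values of 0.343 to 0.857. With 4 samples a side the smallest p that this test can give is 0.0286.

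The mean share was lower in biotin positive samples of each intracardiac tissue, but no single tissue passed the test. Biotin positive bone had 2, 0, 2 and 2 plasma cells (0.0996%, 0%, 0.323% and 0.231%), below the biotin negative sample of the same number in 4 of 4 cases. Brain had 0, 0, 1 and 2 (0%, 0%, 0.323% and 0.299%), liver 2, 0, 3 and 0 (0.164%, 0%, 0.404% and 0%), and lung 1, 0, 3 and 3 (0.0325%, 0%, 0.247% and 0.442%). Taken as 3 counts of the total, a count of 0 allows a share of up to 0.294% in biotin positive bone 2 and of up to 3.19% in biotin positive liver 4, which had 94 cells in all; the upper bounds of the 95% exact intervals are 0.360% and 3.85%. In bone the mean was 0.163% ± 0.142 in biotin positive against 0.558% ± 0.411 in biotin negative samples (n = 4 each), a difference of -0.394 percentage points (two-sided exact permutation test, p = 0.0857, adjusted over 5 tests 0.429). The groups overlapped through biotin negative bone 2. Leaving out that sample, the overlapping one, fixes the exact p at its smallest possible value of 0.0286. The differences were -0.293 points in liver (exact p = 0.257), -0.324 in lung (exact p = 0.343) and -0.0455 in brain (exact p = 0.8), none of which passed.

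**Figure D2:**
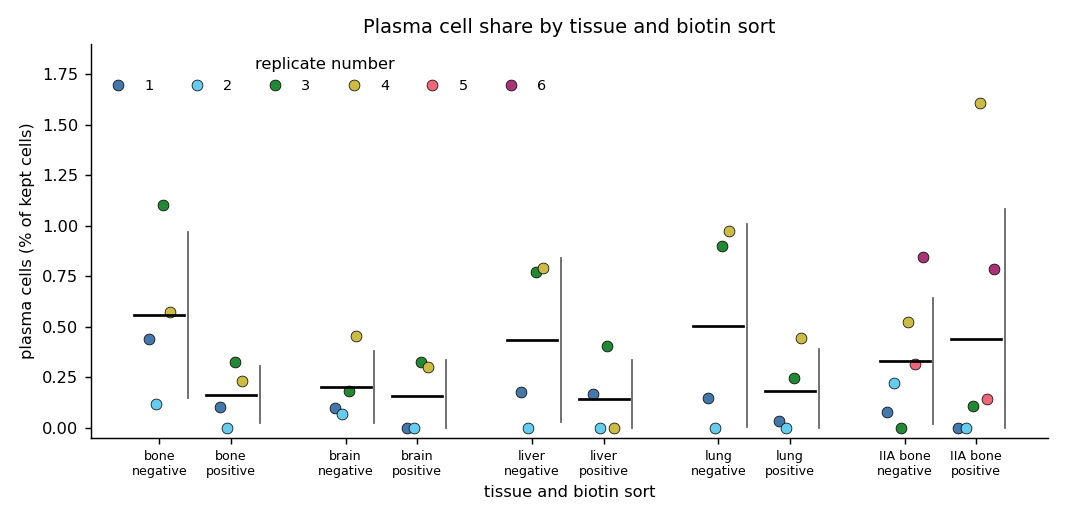
Plasma cells as a percentage of kept cells in each sample, by tissue and biotin sort; each point is 1 sample, coloured by replicate number, the horizontal bar is the group mean and the vertical line spans 1 SD on either side, cut at 0. Biotin negative samples reach 1.10% in bone and 0.974% in lung, and the intracardiac biotin positive samples stay at or below 0.442%.

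Averaged over the 4 intracardiac tissues, the share was 0.160% in biotin positive and 0.424% in biotin negative samples. This difference of -0.264 percentage points, tested after the shares had been seen, had an exact p of 0.0184 when sample labels were permuted within tissues, and 13 of 16 same-numbered pairs were lower in the biotin positive sample, 1 was higher and 2 were equal. With signs exchanged within these pairs the exact p was 0.00134, and it was 0.00195 to 0.0215 with each number left out, the highest without number 4. In lung the numbers did not all pair. Both kinds of permutation overlook that the 4 tissues of 1 number are not independent. Exchanging signs over the 4 numbers as units could give no p below 0.125. Permuted within tissues instead, the difference no longer passed without number 3 (exact p = 0.0628) or without number 4 (exact p = 0.122). Nor did it pass when cells were thinned to 2000 UMIs (-0.102 points, exact p = 0.0826). That setting dropped cells under 2000 UMIs and lowered the Jchain minimum to 2. The difference also did not pass when cells carrying another lineage were left out (-0.316 points, exact p = 0.0542). This took T cells and phagocytes out of the total as well. Biotin negative bone 1 fell from 2961 to 1935 kept cells, and from 13 to 12 plasma cells. As a share of B lineage cells instead of all cells, the difference was +0.676 points (exact p = 0.77), the opposite sign.

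In IIA bone the mean share was higher in biotin positive samples, without passing the test. Biotin negative samples 1 to 6 held 2, 6, 0, 16, 11 and 28 plasma cells (0.0770%, 0.223%, 0%, 0.521%, 0.316% and 0.847%), and biotin positive samples held 0, 0, 1, 4, 3 and 5 (0%, 0%, 0.105%, 1.61%, 0.140% and 0.785%). The means were 0.439% ± 0.643 in biotin positive and 0.331% ± 0.312 in biotin negative samples (n = 6 each), a difference of +0.109 points (exact p = 0.762). The biotin positive sample was the lower one in 4 of 6 numbers, and without biotin positive sample 4, whose 4 plasma cells were among 249 kept cells, the difference was -0.125 points. Between numbers the pooled share ran from 0.0305% in number 3 to 0.837% in number 6.

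Pooled over samples, IgM was the leading class after intracardiac injection and IgG in the IIA pool, but the order differed between numbers. The class was called from the heavy chain constant gene with at least 5 UMIs and 3 times the next. This gave 128 IgM, 60 IgA and 71 IgG cells; 1 cell of 929 UMIs stayed uncalled. The IgG cells used Ighg2b (32 cells), Ighg2c (25), Ighg1 (13) and Ighg3 (1). Among 184 intracardiac plasma cells, 59.8% were IgM (95% exact interval 52.3% to 66.9%), 22.3% IgA and 17.4% IgG. Among the 76 of the IIA pool, 23.7% were IgM (14.7% to 34.8%), 25% IgA and 51.3% IgG. These intervals cover counting error only. IgG led in IIA numbers 2 (4 of 6 cells), 4 (12 of 20) and 6 (19 of 33), while in number 5 IgA led with 7 of 14 cells against 3 IgG, number 3 held 1 IgA cell and number 1 held 1 IgA and 1 IgG cell. The intracardiac cells came from 4 tissues and those of the pool from bone alone. In biotin negative bone, 47.6% of intracardiac plasma cells were IgM and 23.8% IgG. In biotin negative IIA bone these shares were 27.0% and 46.0%. The experiments differed also in injection, library end and software version, so the part of each cannot be told apart.

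Class composition varied between replicate numbers and between tissues of 1 number. Intracardiac number 1 had 9 IgM, 15 IgA and 5 IgG cells, number 2 had 4 IgA cells alone, number 3 had 50, 9 and 11, and number 4 had 51, 13 and 16. By tissue, biotin negative lung had 42 IgM, 5 IgA and 7 IgG cells, bone had 30, 17 and 15, liver 11, 11 and 6, and brain 12, 2 and 4. Within number 4, IgM was 25 of 30 cells in lung and 10 of 13 in brain but 3 of 20 in bone, where 11 were IgA. Within number 3, IgM was 17 of 20 in lung and 20 of 27 in bone but 3 of 12 in liver, so the tissue order of IgM was not the same in the 2 numbers. The planned test needed 3 samples a tissue with at least 10 plasma cells, which no pair of tissues had. With at least 5 cells, bone (47.6% ± 30.0 IgM, n = 3) and liver (37.2% ± 28.7, n = 3) showed no difference past the threshold (exact p = 0.8), where 0.1 is the smallest p possible.

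**Figure D3:**
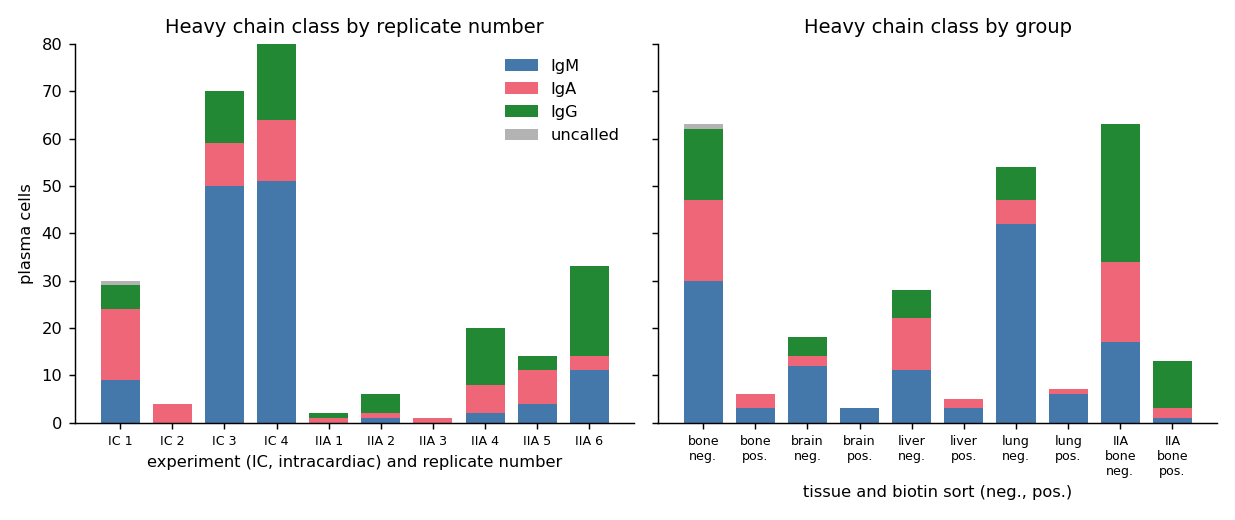
Stacked number of IgM, IgA, IgG and uncalled plasma cells, by experiment and replicate number on the left and by tissue and biotin sort on the right; bars start at 0. IgM cells number 42 of 54 in biotin negative lung, and IgG cells 10 of 13 in biotin positive IIA bone.

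IgG cells were absent from the intracardiac biotin positive cells and led those of the IIA pool. None of the 21 intracardiac biotin positive plasma cells was IgG, against 32 of 163 biotin negative ones (19.6%). The 95% exact interval for the 21 cells reaches 16.1%. It covers counting error only and takes cells of the same sample as independent, so it does not bound the biotin positive condition. In IIA bone, 10 of 13 biotin positive plasma cells were IgG against 29 of 63 biotin negative ones. By sample, IgG was 4 of 4 biotin positive against 8 of 16 biotin negative cells in number 4, 2 of 3 against 1 of 11 in number 5, and 4 of 5 against 15 of 28 in number 6. The 1 biotin positive plasma cell of number 3 was IgA. No biotin positive sample reached the 10 plasma cells set for a test of class shares, so these are counts without one.

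Light chains were almost all kappa, and lambda was found mostly with IgA. Kappa was called in 247 cells and lambda in 12; 1 cell stayed uncalled. Of the 12 lambda cells, 10 were IgA (10 of 60 IgA cells), 1 was IgM (1 of 128) and 1 was IgG (1 of 71), and 11 of them had Iglv1 called. An Iglv1 call did not mark lambda cells by itself, as it was made in 139 of the 260 plasma cells, most of them kappa by the constant gene. The lambda IgA cells came from bone, liver and lung of the intracardiac samples and from IIA bone, from 6 replicate numbers. Within numbers that held both classes, the lambda share was higher among IgA than IgM cells in 5 of 7 and equal in 2, by a mean of 27.6 percentage points. This difference, tested after it was noticed, had p = 0.0625 in an exact sign-flip permutation test over numbers, the smallest these data can give with 2 numbers at a difference of 0, so the test could not pass; without IIA number 2, which held 1 IgA and 1 IgM cell, the mean was 15.6 points.

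Expression was compared between the heavy chain classes. For each replicate number, UMIs of the IgM, IgA and IgG cells were summed where at least 2 cells of the class were present, giving 6 IgM, 7 IgA and 7 IgG sums. Immunoglobulin genes were left out and the classes were compared by edgeR's quasi-likelihood test with the number as a block, calling a false discovery rate (FDR) under 0.05. Between IgA and IgG cells, 29 of 1174 genes were called (2.47%), 8 higher (0.681%) and 21 lower (1.79%) in IgA, and 5 (0.426%) had ranges that did not overlap. Between IgA and IgM cells, 20 were called (1.7%), 7 higher (0.596%) and 13 lower (1.11%) in IgA, and 3 (0.256%) had ranges that did not overlap. Between IgG and IgM cells, 3 were called (0.256%), 2 higher (0.17%) and 1 lower (0.0852%) in IgG, and no gene had ranges that did not overlap (0%). These comparisons were added after the class calls were known. A number's sums mix tissues and sorts whose class make-up differed. The 8 neutrophil markers summed to 44188 CPM in IgA, 24336 in IgM and 20421 in IgG cells, and their part in the IgA comparisons was not tested. With sums per sample and the sample as a block, 465 genes could be tested. For IgA against IgM 4 were then called, with 2 of the 12 original calls still tested among them, and Jun, Slc3a2, Ly6c2, Crip1, Herpud1 and Malat1 were among those that lost their calls. For IgA against IgG 13 were called, with 10 of the 18 still tested among them, Slpi and Ly6c2 included, while Crip1, Ly6d, Slc3a2 and Herpud1 were among those lost.

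IgG plasma cells held high Slpi and Ly6c2. Slpi, the protease inhibitor, stood in the IgG sums at 79037, 73508, 64479.5 and 91021 CPM in IIA numbers 2, 4, 5 and 6 and at 12571, 70724 and 39709.5 CPM in intracardiac numbers 1, 3 and 4. In IgA cells it stood at 10148, 7625 and 624 CPM in IIA numbers 4, 5 and 6 and at 1192, 178, 689 and 3070.3 CPM in intracardiac numbers 1 to 4. The 2 classes did not overlap, and Slpi was lower in IgA by a log2 difference of -3.91 (SE 0.65, FDR 0.00184, edgeR). IgM cells lay between, at 2267 to 17045 CPM, and against IgM the IgG cells' log2 difference of +2.71 missed the threshold (FDR 0.0597, edgeR). Slpi against IgA no longer passed in the intracardiac samples alone (FDR 0.0625).

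Ly6c2, a surface protein of the Ly6 family, ranged from 113 to 847 CPM in IgA sums (median 555) and from 1300.3 to 22205 in IgG sums (median 3774), again without overlap. The log2 difference was -3.31 (SE 0.53, FDR 0.00184, edgeR), and it was called under all 16 alternatives and all 8 omissions of a number. Of the same family, Ly6a was lower in IgA by -2.01 (FDR 0.0093) and Ly6d by -1.60 (FDR 0.00944, edgeR). Ly6a kept its call in 14 of 16 alternatives and Ly6d in 11 of 16. Neither was called in the intracardiac samples alone or in the IIA samples alone. Ly6c2 was also lower in IgA than in IgM cells, by -2.24 (FDR 0.037, edgeR), where IgM sums ran from 712 to 12979 CPM. This second call was kept in 12 of 16 alternatives and 4 of 8 omissions of a number. Members of this family are close in sequence and reads could be split between them.

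**Figure D4:**
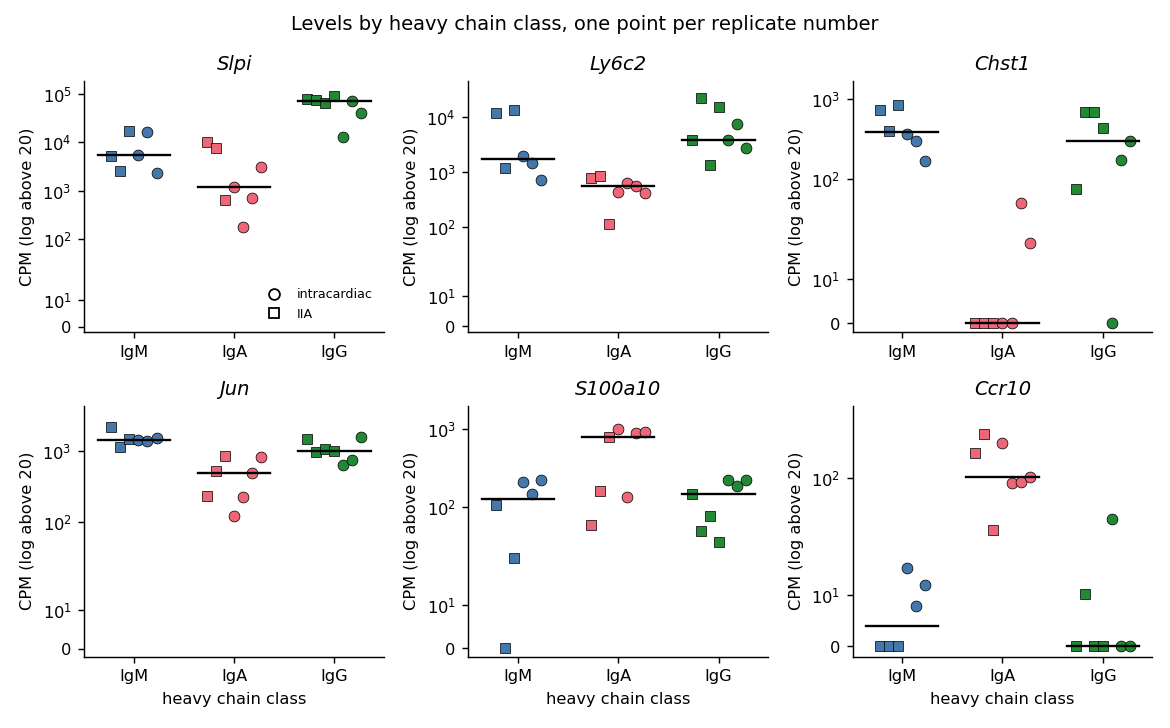
Level of Slpi, Ly6c2, Chst1, Jun, S100a10 and Ccr10 in IgM, IgA and IgG plasma cells, in CPM outside immunoglobulin genes on an axis that is linear up to 20 and log above; each point is the sum of 1 class in 1 replicate number, circles are intracardiac and squares IIA, and the bar is the median. Slpi runs from 178 to 10148 in IgA and from 12571 to 91021 in IgG, and Ccr10 reaches 302.6 in IgA and 36.5 in IgG.

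Among the other genes higher in IgG than in IgA cells, Pon3, a lactonase, ran from 305.95 to 1008 CPM in IgG and from 0 to 161 in IgA (log2 difference IgA minus IgG -2.82, SE 0.46, FDR 0.00184, edgeR). Pon3 was not called in the intracardiac samples alone or in the IIA samples alone. Cd74, the class II invariant chain, had medians of 9615 CPM in IgG and 4335 in IgA (-1.24, FDR 0.00212), and B2m, the light chain of MHC class I, of 8577 and 3699 (-1.01, FDR 0.0113). Both antigen presentation genes overlapped between classes: the IgG sum of IIA number 2 stood at 2442 CPM for Cd74. Ccnd2, cyclin D, was lower in IgA by -1.73 (FDR 0.0115), Epcam, an adhesion molecule, by -1.85 (FDR 0.012) and Zbp1, an interferon-induced nucleic acid sensor, by -1.60 (FDR 0.0244). Of the 4 class II genes tested, Cd74 was the 1 called, against 1.79% of all 1174 genes called lower in IgA, and the other 3 had differences above 0 that were not called, H2-Eb1 at +1.22 (FDR 0.117), H2-Aa at +0.52 (FDR 0.698) and H2-Ab1 at +0.07 (FDR 0.964). Of 4 interferon-stimulated genes, Zbp1 was called, while Ifi27l2a stood at +1.09 (FDR 0.295) and Bst2 at +0.54 (FDR 0.296, edgeR). Zbp1 lost its call without cells carrying another lineage and without cells over 3% neutrophil RNA.

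IgA cells in turn held higher S100a10, the partner of annexin A2, than both other classes. Its IgA sums ran from 58.3 to 989 CPM (median 794), the IgG sums from 35.7 to 223 and the IgM sums from 0 to 218, so the ranges overlapped. The log2 differences were +2.34 against IgG (SE 0.37, FDR 0.00184) and +2.49 against IgM (SE 0.37, FDR 0.00213, edgeR). Crip1, a small LIM domain protein, was higher by +2.04 and +1.86 (FDR 0.0103 and 0.0433, edgeR). Against IgM, Crip1 kept its call in 12 of 15 alternatives and 4 of 8 omissions of a number. In the intracardiac samples alone neither Crip1 call was kept. St6gal1, the enzyme that adds terminal sialic acid to the glycans of secreted proteins, was higher in IgA than in IgG cells by +1.86 (SE 0.38, FDR 0.00944, edgeR). Its IgA sums stood at 1458, 1429.6 and 794 CPM in IIA numbers 4, 5 and 6 and at 219.7, 178, 420.4 and 244.5 in intracardiac numbers 1 to 4, and the IgG sums ran from 79.4 to 229, so the intracardiac sums overlapped them. Its call was lost without IIA number 6 (+1.64, FDR 0.0559), in the intracardiac samples alone (+0.95, FDR 0.451) and with at least 4 cells of the class (+1.58, FDR 0.0717, edgeR). Ptprcap, which binds the phosphatase CD45, was higher than in IgG by +2.11 (FDR 0.0115).

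Against IgM, IgA cells were lower in Jun and Egr1. Jun, a transcription factor induced within minutes of stimulation, ran from 118 to 851 CPM in IgA sums (median 488) and from 1143 to 2212 in IgM sums, with no overlap (log2 difference -1.75, SE 0.32, FDR 0.00611, edgeR). Egr1, another such factor, was lower by -2.51 (SE 0.63, FDR 0.0482). Of the 12 immediate early and heat shock genes tested, these 2 were called, against 1.11% of all 1174 genes called lower in IgA; 1 had a difference above 0 and the median of the 12 was -0.41, against +0.02 over all 1174 genes. Egr1 lost its call under 6 of 10 alternatives and 4 of the 6 omissions of a number in which it was tested. Jun also lost its call with sums per sample and the sample as a block (-1.004, FDR 0.458, edgeR). The classes were spread unevenly over tissues, and over all classes Jun stood at 263 to 422 CPM in the biotin negative bone samples and 396 to 1537 in those of the other tissues, here per total UMIs with immunoglobulin genes included, so these levels are not on the scale of the class sums; the part of tissue in this difference was not tested.

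Chst1, a carbohydrate sulfotransferase, was detected in few IgA cells. It was at 0 in 5 of 7 IgA sums, with 50.4 and 18.1 CPM in intracardiac numbers 3 and 4, and ran from 167 to 849 CPM in IgM (log2 difference -4.34, SE 0.69, FDR 0.00213, edgeR) and from 0 to 700.4 in IgG (-3.89, FDR 0.00492). Slc3a2, the shared chain of CD98 amino acid transporters, was lower in IgA than in IgM by -1.64 (SE 0.26, FDR 0.00213) and than in IgG by -1.22 (FDR 0.0115). Inpp4b, a lipid phosphatase, was lower in IgA than in IgM by -2.09 (FDR 0.00432) and was called under all 15 alternatives in which it was tested. Its levels differed far more between experiments, with 53.3 to 117 CPM in intracardiac and 1318 to 3899 CPM in IIA IgM sums.

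Of 23 unfolded protein response genes tested, 2 were lower in IgA than in IgM cells, against 1.11% of all 1174 genes called in that direction: Herpud1 by -1.03 (SE 0.23, FDR 0.033) and Sel1l, a scaffold of endoplasmic reticulum degradation, by -1.20 (SE 0.30, FDR 0.0433, edgeR). Herpud1 kept its call in 9 of 16 alternatives and 3 of 8 omissions of a number, and Sel1l in 14 of 16 and 2 of 8. Herpud1 was also lower than in IgG, by -0.99 (FDR 0.0198). No gene of the 27 tested for translocation and transport was called between IgA and IgM (median difference +0.07), between IgG and IgM (+0.13) or between IgA and IgG (-0.01). In the same order, 1.7%, 0.256% and 2.47% of all 1174 genes were called, so 0 of 27 does not set the list apart. Xbp1 was not called in any of the 3 comparisons and stood at 1210.2 to 4133 CPM in IgM, 1630.3 to 3616 in IgA and 1782 to 5252 in IgG sums.

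IgG and IgM cells differed by few genes. Vpreb3, a relative of the surrogate light chain, was higher in IgG by +3.02 (SE 0.56, FDR 0.0275, edgeR) and in IgA than IgM by +3.13 (SE 0.58, FDR 0.00611). Between IgG and IgM, Vpreb3 kept its call in 4 of 8 omissions of a number and lost it with at least 4 cells of the class. It was at 0 in 3 of 6 IgM sums, reached 202 CPM in IIA number 5, and ran from 113 to 699.9 in IgA and from 74 to 396 in IgG sums. Cells with a Vpreb3 UMI were 9.38% of IgM, 65% of IgA and 45.1% of IgG plasma cells, at median depths of 13780.5, 13130 and 13833 UMIs. The other 2 calls were myeloid genes: Lyz2, lysozyme, was higher in IgG by +2.89 (FDR 0.0312) and Mpo, the neutrophil granule peroxidase, lower by -2.98 (FDR 0.0275). Lyz2 belongs to the phagocyte list, whose 8 markers summed to 372 CPM in IgM and 1421 in IgG cells, and the 8 neutrophil markers summed to 24336 and 20421; the part of other cells' RNA in these 2 calls was not tested. Without the 12 cells above 3% neutrophil RNA 1 gene, Vpreb3, was called (+3.06, FDR 0.0211) and Lyz2 lost its call (FDR 0.1). Without the cells carrying another lineage no gene was called, with Lyz2 at +1.85 (FDR 0.755, edgeR) and Vpreb3 and Mpo not tested.

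Among homing receptors, Ccr10, the chemokine receptor that guides IgA plasma cells to mucosal surfaces, had a UMI in 25 of 60 IgA, 5 of 128 IgM and 2 of 71 IgG cells. Its sums ran from 28.1 to 302.6 CPM in IgA, from 0 to 15.2 in IgM and from 0 to 36.5 in IgG. Ccr10 was too low for the filter on low counts; in the fit without that filter it was higher in IgA than IgM by a log2 difference of +3.57 (FDR 1.67e-05, edgeR) and than IgG by +4.04 (FDR 5.17e-06). Itgb7, the integrin chain that pairs with alpha chains to bind mucosal vessels, had a UMI in 31 of 60 IgA, 24 of 128 IgM and 12 of 71 IgG cells. Without the filter it was higher in IgA by +1.87 (FDR 0.0358) and +2.01 (FDR 0.0121). In T cells, which lack the immunoglobulin programme, Ccr10 stood at 2.07 CPM and Itgb7 at 173 CPM in the intracardiac samples. Ccr9, another mucosal homing receptor, was not called without the filter, at +1.99 against IgM (FDR 1) and +2.35 against IgG (FDR 0.665, edgeR). Of the 17 homing genes listed, 5 passed the filter and none of those was called in any class comparison. The shares of all 1174 genes called were 1.7% (IgA against IgM), 0.256% (IgG against IgM) and 2.47% (IgA against IgG). Beside these, 0 of 5 does not set the list apart. Cxcr4, the receptor for the marrow retention signal Cxcl12, was detected in 95 of 260 plasma cells at 90.9 CPM, below the 273 CPM of B cells in the intracardiac samples.

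The BCMA gene Tnfrsf17 was not called between classes. It had a UMI in 71.7% of IgA, 43% of IgM and 33.8% of IgG cells, and its sums ran from 56.7 to 769 CPM in IgA and from 0 to 297 in IgG, with overlap. None of the 5 survival receptor and Bcl2 family genes tested was called in any class comparison. Of all 1174 genes, 1.7% were called between IgA and IgM, 0.256% between IgG and IgM and 2.47% between IgA and IgG. Beside these shares, 0 of 5 does not set the list apart. Cox6a2, a cytochrome oxidase subunit also known from plasmacytoid dendritic cells, had a UMI in 15 IgM cells, 1 IgA cell and no IgG cell, and without the filter it was lower in IgA than IgM by -3.59 (FDR 0.00405, edgeR). It was also called lower in IgG, where it had no UMI, than in IgM (FDR 4.25e-05, edgeR), and was not called between IgA and IgG. Cox6a2 was picked after these counts were seen, so the FDRs restate them.

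Bone plasma cells were compared with those of the other tissues over the 8 biotin negative intracardiac samples that held at least 10 plasma cells, 3 of bone, 1 of brain, 2 of liver and 2 of lung. Because immunoglobulin genes were tested here and in the biotin comparisons, CPM in these is per total UMIs with immunoglobulin genes included and is not on the scale used for populations and classes. None of 1867 genes was called (0%), and 73 had ranges that did not overlap (3.91%), with 123 at an unadjusted p under 0.05; DESeq2 called 16 and edgeR without the filter on low counts 130. The first gene by p was Dusp4, a phosphatase of MAP kinases, at 2.41 to 5.20 CPM in bone and 5.53 to 189.6 in the others after normalisation (log2 difference -4.23, SE 0.60, FDR 0.0779, edgeR). Prg2, a granule protein that plasma cells also express, stood at 509, 494 and 455 CPM in bone and between 95.4 and 179 in the 5 others (+1.66, FDR 0.0779). The 6 neutrophil markers tested had a median difference of +3.05 toward bone, none called, with S100a8 at 322, 4538 and 23305 CPM in the bone samples and 488 to 7535 in the others, and their part in other differences was not tested. The 11 immediate early and heat shock genes tested had a median of -1.19, with 1 above 0 and none called.

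The biotin sorts were compared where a sample held at least 2 plasma cells, since no biotin positive sample reached 10. In the intracardiac samples, 13 negative and 8 positive, 1 of 388 genes was called (0.258%). This was Ighg2b, lower in biotin positive cells by -7.99 (SE 1.64, FDR 0.0383, edgeR), which restates the absence of IgG cells there, and it lost its call in 14 of 21 omissions of a sample. The positive samples rest on 2 or 3 plasma cells each. The rule genes, the 15 unfolded protein response genes and the 17 secretory genes tested held median differences of +0.12, +0.09 and -0.00481. In IIA bone, with 5 negative and 3 positive samples, none of 792 genes was called (0%) and 40 had ranges that did not overlap (5.05%), with 42 at an unadjusted p under 0.05 and 4 called by DESeq2. None of the 23 unfolded protein response genes tested was called, and Hspa5 ran from 176.6 to 1517 CPM in the negative and from 359 to 2211 in the positive samples, with overlap. The neutrophil markers summed to 30677 CPM outside immunoglobulin genes in the positive and 9478 in the negative IIA plasma cells. The positive samples were uneven: per total UMIs, S100a8 stood at 18117, 300 and 24.0 CPM in positive samples 4, 5 and 6. In the negative samples it ran from 185 to 19711 CPM. The part of neutrophil transcripts in the biotin comparison was not tested.

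A minority of plasma cells carried cell cycle transcripts. At least 3 of 11 proliferation genes, among them Mki67 and Top2a, were detected in 27 of 260 plasma cells (10.4%): 13 of 128 IgM, 8 of 60 IgA and 6 of 71 IgG. By group these were 7 of 63 cells in biotin negative bone, 9 of 54 in lung, 3 of 28 in liver, 2 of 18 in brain and 3 of 63 in IIA bone, all biotin negative, with 1 cell in each of 3 biotin positive groups. The cycling cells came from intracardiac numbers 1, 3 and 4 and, 2 cells each, from IIA numbers 4 and 6. Plasma cells are deep, so each was also thinned to 2000 UMIs, which left out 3 cells; 11 of 257 then still had 3 of the genes, 6 IgM, 5 IgA and no IgG. Summed levels of Mki67 were 203 CPM in intracardiac plasma cells against 52.1 in B cells, and 60.1 against 108 in the IIA pool, so the direction was not shared.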

How the data were processed

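UMI counts per gene and cell were deposited by the authors as Cell Ranger matrices, version 6.1.2 for the 32 intracardiac samples and 7.1.0 for the IIA pool per the file headers, and the submitters' processing notes name mm10, Cell Ranger and Seurat. Cells of the pool were assigned to samples where the top hashtag had at least 10 UMIs and 3 times the second. Kept cells per sample numbered 94 to 3505, with median depths of 2532 to 11313.5 UMIs.

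Plasma cells were taken by the rule given above, and UMIs were summed per sample, or per replicate number and heavy chain class. Sums were tested with edgeR 4.0.16 (R 4.3.3; quasi-likelihood, TMM, filterByExpr, Benjamini-Hochberg FDR under 0.05), with DESeq2 1.42.0 as an alternative; shares were tested with exact two-sided permutation tests (scipy 1.17.1). The biotin fits use samples with at least 2 plasma cells, where 10 had been planned, and the bone fit is of biotin negative samples for that reason. The rule for named genes took, in each comparison, up to 12 higher and 12 lower called genes whose CPM ranges did not overlap, the called or else most abundant members of each list, the constant region and rule genes, and the 10 most abundant transcripts. The other called genes named, Dusp4, Prg2, Ccr10, Itgb7, Cox6a2 and the V segments were chosen after their values were seen. The members, lists and class comparisons were chosen with earlier results of these data known. On simulated data with 200 genes changed 4-fold, 100% were recovered in each class comparison of 1174 genes, 92.8% in the bone fit of 1867 genes and 78.5% in the IIA biotin fit of 792 genes. In the intracardiac biotin fit of 388 genes 100% were recovered, and 3.21% of unchanged genes were called. The simulation held no differences between numbers, experiments or tissues, and the spread of each gene followed a common trend. These rates therefore do not carry over to the real data.

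Same-numbered biotin positive and negative samples deviated together over 8083 genes in bone (correlations 0.423 to 0.760), brain (0.318 to 0.684) and liver (0.308 to 0.670), where the numbers are taken to pair the samples. In lung (-0.198 to 0.577) and IIA bone (0.0999 to 0.638) not every pair passed 0.1. V segment sequences come from GENCODE M21 on GRCm38. Ddit3 and Mx1 are not analysed here. Some withheld items are not reported here.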

Additional observations from a re-analysis of the deposited data

Results flagged for a closer look

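Of 72 groups of sums of a gene in a heavy chain class and 10 groups of sample shares, 15 held a highest or lowest value set apart from the others; chance alone sets apart about 1 in 20. None of the 15 was a plasma cell share.

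In IgM plasma cells, IIA number 5 stood high in Vpreb3 (201.7 CPM, next 43.86) and St6gal1 (470.6, next 241.2), IIA number 4 in Jun (2212, next 1532) and intracardiac number 1 in Tnfrsf17 (770.7, next 315.9). In IgA plasma cells, IIA number 5 stood high in Egr1 (370.6 CPM, next 133.2) and Slc3a2 (1271, next 710.2), intracardiac number 3 in Chst1 (50.44, next 18.11), and IIA number 6 stood low in Cd74 (1589, next 3958). In IgG plasma cells, intracardiac number 1 stood high in Ccr10 (36.53 CPM, next 10.18).

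The other 6 are myeloid transcripts. S100a8 reached 72950 CPM in IgA cells (next 2146) and 19160 CPM in IgM cells (next 4905) of intracardiac number 4, and Lyz2 reached 3487 CPM in the IgA cells of that number (next 941.6). Mpo was highest in IIA number 6 among IgA cells (624.1 CPM, next 84.07) and IgM cells (1854, next 315.9), and in IIA number 2 among IgG cells (518.0, next 153.0).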

How the results depend on the processing

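The plasma cell shares kept their direction under other Jchain minimums, a mitochondrial maximum of 10% and other hashtag ratios. Exceptions came from other settings. Leaving out cells carrying another lineage also took T cells and phagocytes out of the total. In that setting the biotin difference in brain was +0.132 points and bone minus lung was -0.111. As a share of B lineage cells the biotin difference was +7.001 points in brain, +0.968 in lung and +0.676 over the 4 tissues. Thinned to 2000 UMIs, liver minus lung was +0.0192, and the difference over the 4 tissues was -0.102 and did not pass; it was -0.316 and did not pass without cells carrying another lineage. Leaving out 1 sample or number gave -0.541 to -0.212 in bone (passing without biotin negative bone 2), -0.101 to 0.0392 in brain, -0.125 to 0.212 in IIA bone and -0.337 to -0.201 over the 4 tissues. For the biotin sort it gave -0.437 to -0.175 in liver and -0.492 to -0.168 in lung. Between tissues it gave -0.0591 to 0.270 for bone minus liver, -0.129 to 0.209 for bone minus lung and -0.238 to 0.0863 for liver minus lung. The ranges with brain were 0.175 to 0.504 for bone minus brain, -0.378 to -0.116 for brain minus liver and -0.472 to -0.147 for brain minus lung. The IgA share of the IIA plasma cells ran from 19.4% to 37.2%, the latter without number 6. With the replicate block no share call changed (bone exact p = 0.125, which is the smallest possible, IIA bone exact p = 0.906, the 4 tissues exact p = 0.00134). The last of these takes 16 pairs as independent, although the 4 tissues share their numbers.

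Counts of called genes moved more; the cause was not tested. For bone against other tissues (0 called), DESeq2 called 16, no low-count filter 130, samples with at least 20 plasma cells 8 and leaving out cells over 3% neutrophil RNA 1, and omitting a sample gave 0 to 2. For the intracardiac biotin sort (1), DESeq2 called 2 and no filter 91, while leaving out immunoglobulin genes, samples under 3 plasma cells, cells of another lineage or cells over 3% neutrophil RNA gave 0 each, and omitting a sample gave 0 to 1. For the IIA biotin sort (0), DESeq2 called 4, no filter 82, the replicate block 2 and samples with at least 5 plasma cells 1, and omitting a sample gave 0 to 1. For IgA against IgM (20), IIA alone gave 8, intracardiac alone 4, at least 4 cells 10, no filter 61, sums per sample 48 without the block and 4 with the sample as a block, and omitting a number 6 to 25, with 6 without intracardiac number 3, 9 without intracardiac number 1, 11 without IIA number 4 and 12 without IIA number 6. For IgG against IgM (3), DESeq2 called 10, IIA alone 0, at least 4 cells 0, no filter 38, no replicate block 1, sums per sample 7 and 0, without other lineages 0, without neutrophil RNA 1, and omitting a number 0 to 4, with 0 without intracardiac number 1, 3 or 4. For IgA against IgG (29), DESeq2 called 52, IIA alone 12, intracardiac alone 6, at least 4 cells 16, no filter 90, sums per sample 59 and 13, without cycling cells 52, and omitting a number 19 to 35, with 19 without IIA number 6.

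Without the number as a block, 23 genes were called for IgA against IgM and 26 for IgA against IgG. Class shares at 20 cells, and biotin fits at 10 or 20 cells, could not be fitted for want of samples. The comparisons of classes, the mean over 4 tissues, the lambda share and the neutrophil criterion were added after seeing the data. The biotin positive groups hold 21 intracardiac and 13 IIA plasma cells in all, which limits their precision.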
